A study of Mus musculus with 6 samples.

Results

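The genes described here encode the subunits of heterotrimeric G proteins and the numbered regulators of G protein signalling (RGS proteins). They were chosen by symbol alone, as Gna genes for alpha subunits, Gnb1 to Gnb5, and Gng or Rgs followed by a number. The rule found 45 of the 18194 genes on the array, of which 12 encode alpha subunits, 5 beta subunits, 9 gamma subunits and 19 RGS proteins. These genes were read by 110 probe sets, and the probe set with the highest mean over the arrays stood for its gene.

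A heterotrimeric G protein carries the signal of a membrane receptor into the cell. The activated receptor makes the alpha subunit exchange GDP for GTP, the alpha subunit and the beta-gamma dimer separate, and each acts on its own effectors. Alpha subunits of the Gs class raise cAMP, those of the Gi class lower it, those of the Gq class activate phospholipase C beta, and Gna12 and Gna13 form a further class. RGS proteins speed the hydrolysis of GTP by alpha subunits and so shorten the signal, and in fibroblasts some RGS genes are known as genes whose mRNA changes quickly after stimulation. LPAR1, a receptor for the serum lipid lysophosphatidic acid, couples to the Gi, Gq and Gna12/Gna13 classes.

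RNA came from NIH3T3 cells, an established line of mouse embryonic fibroblasts, and was hybridised to 6 Affymetrix expression arrays. Mutant cells carried mutant LPAR1 and had 1 array each at 0, 60 and 120 minutes, and wild-type cells carried wild-type LPAR1 and had 1 array at each of the same times. The labels and design text do not name the mutation, the treatment at 0 minutes, the way the receptor was introduced or altered, or the number of clones and cultures behind the arrays. Nothing says that the arrays of a genotype came from separate cultures, so p-values measure only the spread between these arrays, which may be technical.

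The values are intensities per probe set on a linear scale, and their precision is limited by the few arrays. Array means ran from 299 to 308. The ratio of 5′ to 3′ probe sets of Actb, a measure of RNA and labelling quality, was 0.505 on the mutant and 0.579 on the wild-type array at 0 minutes, and between 0.650 and 0.699 on the 4 arrays at 60 and 120 minutes. This ratio therefore moved with time, and its part in the time differences was not tested. All 9 fibroblast markers were above the filter level, with summed intensities of 56938 to 57704 on mutant and 57632 to 58936 on wild-type arrays. By genotype 3 of them passed in limma, Col1a1 (-0.49) and Pdgfrb (-0.23) lower and Col3a1 (0.18) higher in mutant cells, and at 120 against 0 minutes Pdgfra (-0.64) and Pdgfrb (-0.32) fell. Lpar1 averaged 1483 ± 39.4 on mutant and 1305 ± 26.4 on wild-type arrays (SD, n = 3 each), a log2 difference of 0.18 ± 0.045 (SE, limma adjusted p = 0.0209). That call was lost without either array at 0 minutes (adjusted p = 0.0572 and 0.0569) or at 60 minutes (0.104 and 0.103), and a probe set may not detect an introduced receptor.

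A gene entered the tests when its level reached the 40th percentile of all genes, an intensity of 39.2 taken from the mean of log2(intensity + 16). Of the 45 genes, 29 reached it: 8 alpha, 5 beta, 5 gamma and 11 RGS genes. The other 16 were Gna14, Gna15, Gnai1 and Gnaz among the alpha genes, Gng2, Gng3, Gng4 and Gng13 among the gamma genes, and Rgs1, Rgs5, Rgs6, Rgs7, Rgs8, Rgs11, Rgs13 and Rgs18. Their mean intensities lay between 2.64 and 38.5. Gnb3 lay just inside the limit, at 37.9, 26.7 and 44.6 on the mutant and 50.6, 40.6 and 40.01 on the wild-type arrays at 0, 60 and 120 minutes. Gnai1 lay just outside it, at 48.7, 43.0 and 32.8 on the mutant and 38.0, 38.3 and 29.9 on the wild-type arrays. When the filter was dropped, none of the 16 passed the limma test in any of 4 contrasts. Of these 64 tests 2 had an unadjusted p under 0.05. In that fit 10.1% of all genes passed by genotype. Against 0 minutes 9.44% passed at 60 and 27.2% at 120 minutes, and against 60 minutes 13.4% passed at 120 minutes. The 16 genes were set apart by their low signal, where a change is hard to detect. Gng5 shares its probe sets with other genes and was not analysed here.

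**Figure D1:**
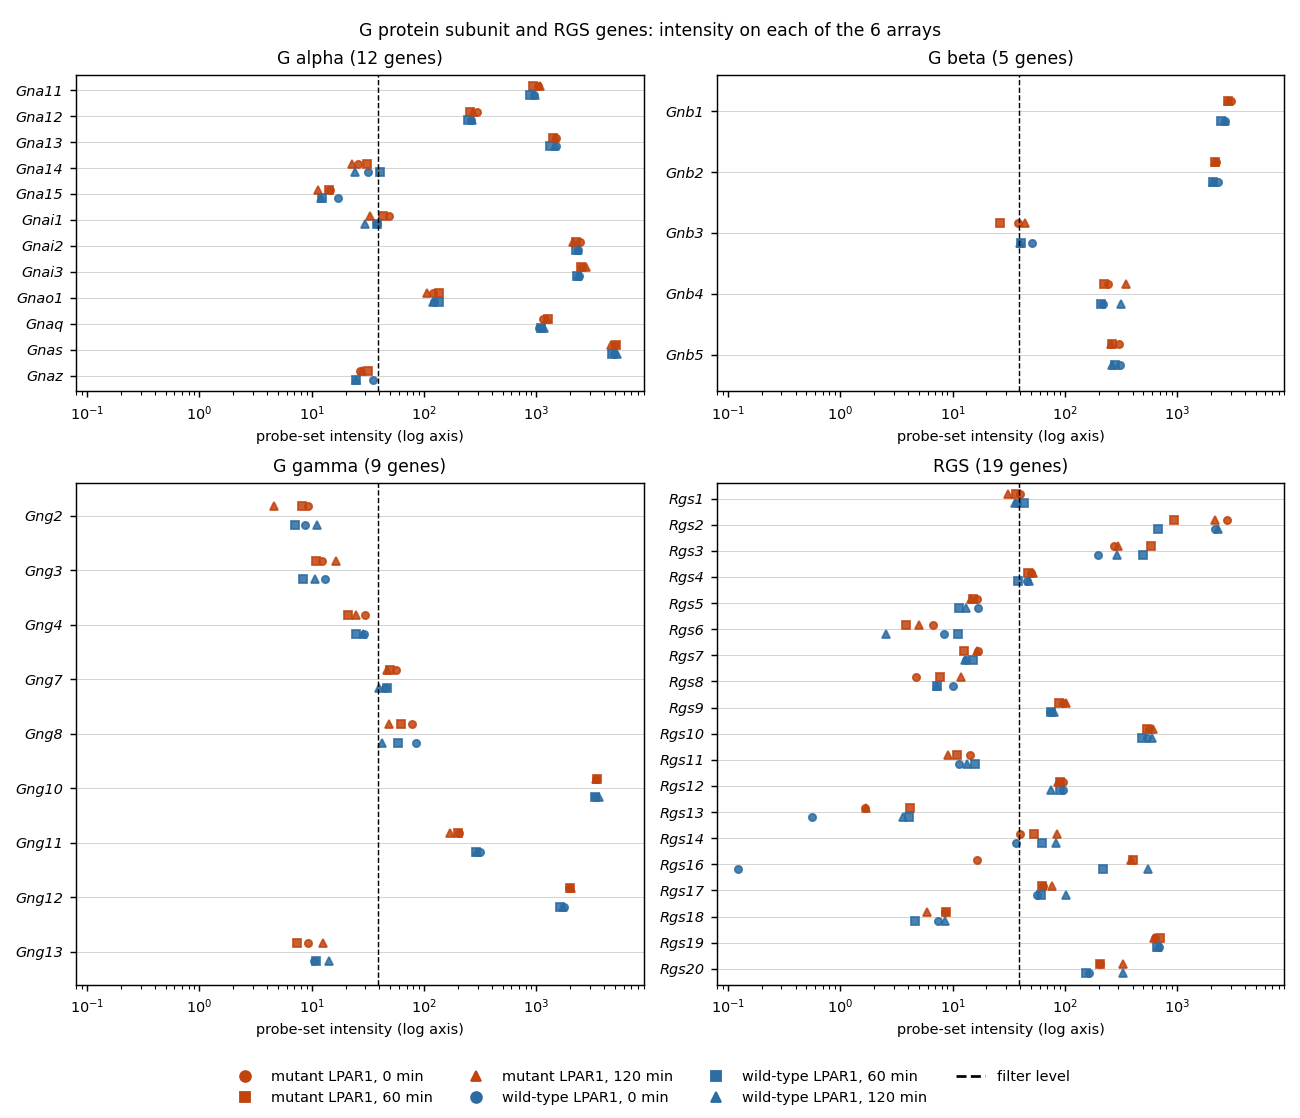
Intensity on a log axis of each of the 45 genes on each of the 6 arrays, grouped as alpha, beta, gamma and RGS genes, with mutant arrays in orange above wild-type arrays in blue, circles, squares and triangles for 0, 60 and 120 minutes, and the filter level of 39.2 as a dashed line. The spread of Rgs16 over the arrays is wide, while the points of most alpha genes lie on top of each other. Levels of different genes come from different probes and are not compared.

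On the probe sets used, the alpha subunits varied little between arrays. All 8 tested alpha genes varied by less than 1.5-fold between their highest and lowest array on the offset scale, as did 19 of the 29 tested genes of the family and 70.8% of all genes tested. Gnas, the alpha subunit that stimulates adenylyl cyclase, had intensities of 5045, 5116 and 4641 at 0, 60 and 120 minutes in mutant cells and 4928, 4731 and 5248 in wild-type cells. Gnai2, an inhibitory alpha subunit, had 2423, 2259 and 2118 in mutant cells and 2346, 2267 and 2349 in wild-type cells. For both genes the mutant and wild-type values overlapped.

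Gnaq, which activates phospholipase C beta, had 1154, 1279 and 1234 in mutant cells and 1058, 1096 and 1170 in wild-type cells, so the mutant array was the higher of the pair at each time. Gna13, of the class named for Gna12 and Gna13, had 1491, 1410 and 1468 in mutant cells and 1500, 1326 and 1477 in wild-type cells. Its relative Gna12 had 294, 258 and 271 in mutant cells and 261, 248 and 268 in wild-type cells. Gnao1, an alpha subunit best known from neurons, had 121, 136 and 107 in mutant cells and 124, 136 and 120 in wild-type cells. Fitted log2 differences of the 8 alpha genes lay between -0.06 and 0.14 for mutant minus wild-type, between -0.13 and 0.14 for 60 minus 0 minutes, and between -0.10 and 0.12 for 120 minus 0 minutes. None of them passed in these 3 contrasts in limma, where 3, 1 and 0 of them had an unadjusted p under 0.05. Of all genes tested, 19.4%, 18.0% and 47.0% passed in the same contrasts. For 120 minus 60 minutes the alpha genes lay between -0.23 and 0.18, with 2 unadjusted p under 0.05. There 1 gene, Gna11, passed, beside 25.1% of all genes. Another probe set of Gnaq gave 0.30 for 120 minus 0 minutes (adjusted p = 0.0326 in a limma fit over all probe sets with 1 gene symbol). Its remaining probe sets gave 0.08 to 0.23.

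Time was compared with an additive limma fit of genotype and time over all 10916 tested genes, so a time difference is the mean over both genotypes. A gene is said to have risen or fallen where its adjusted p was at most 0.05. At 60 minutes 4 of the 29 genes passed against 0 minutes, 3 higher and 1 lower (13.8%), beside 18.0% of all genes tested, of which 7.33% were higher and 10.6% lower. At 120 minutes 8 passed against 0 minutes, 6 higher and 2 lower (27.6%), beside 47.0% of all genes, with 16.2% higher and 30.8% lower. Between 120 and 60 minutes 8 passed, 7 higher and 1 lower (27.6%), beside 25.1% of all genes, with 10.2% higher and 14.9% lower. In either direction together, the shares of the family were thus near or below those of all genes. By direction this did not hold throughout. Between 120 and 60 minutes 7 of 29 were higher, beside 10.2% of all genes. At 120 against 0 minutes 2 of 29 were lower, beside 30.8%. These shares were not tested. Median log2 differences of the family were -0.06, -0.01 and 0.06 in the 3 contrasts, beside -0.07, -0.09 and -0.02 over all genes. Without 1 array the count of 8 at 120 against 0 minutes fell as low as 5 (wild-type at 0 minutes), and that of 8 at 120 against 60 minutes to 4 (mutant at 60 minutes) or 5 (wild-type at 60 or 120 minutes). In each of these fits the share of all genes that passed also fell, from the 47.0% and 25.1% with every array. The contrasts share arrays and are not independent of each other.

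In any time contrast 11 of the 29 genes passed (37.9%), beside 50.6% of all genes. Of these 11, 7 were RGS genes, 2 beta, 1 gamma and 1 alpha. In these bulk samples a change in the RNA per cell cannot be told apart from a change in the share of cells that express a gene. The genes with the largest changes were Rgs2, Rgs16 and Rgs3.

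**Figure D2:**
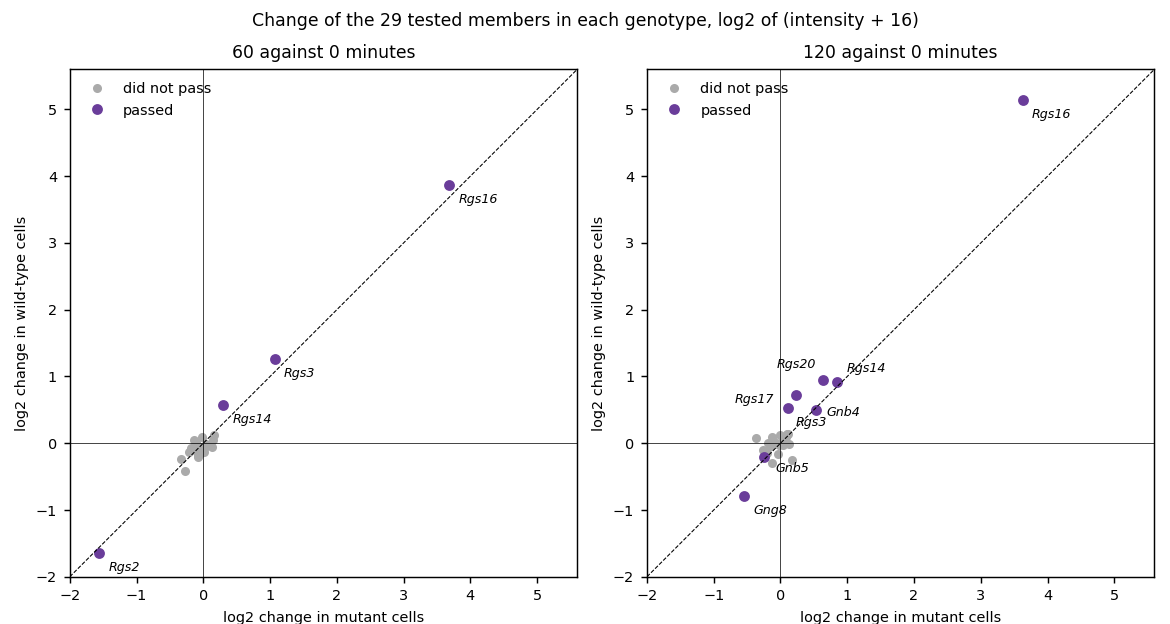
Log2 change (log2(intensity + 16) scale) of each of the 29 tested genes in mutant cells (horizontal axis) and in wild-type cells (vertical axis), for 60 against 0 minutes on the left and 120 against 0 minutes on the right, with 1 array at each time and genotype. Purple points passed in the fit over both genotypes, grey points did not, and the dashed line marks equal change. Rgs16 lies at the upper right in both panels, where its position depends on the offset because its arrays at 0 minutes were below the filter level, and Rgs2 at the lower left at 60 minutes.

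The promoters of Rgs16 and Rgs2 are shown because these genes had the largest rise and the largest fall of the family. Both sequences run 5′ to 3′ on the strand of the gene, from 250 bases before to 50 bases after the annotated start, and come from RefSeq on GRCm38.p6. Rgs16 lies at chr1:153740103-153740402 on the plus strand and Rgs2 at chr1:144004100-144004399 on the minus strand. Capitals mark matches to the motifs searched.
Rgs16: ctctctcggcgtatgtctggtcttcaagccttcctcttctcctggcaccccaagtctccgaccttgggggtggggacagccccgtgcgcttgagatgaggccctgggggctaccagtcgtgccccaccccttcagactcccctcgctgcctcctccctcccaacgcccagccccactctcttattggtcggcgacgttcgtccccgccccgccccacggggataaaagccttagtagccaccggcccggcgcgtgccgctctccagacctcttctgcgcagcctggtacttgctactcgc
Rgs2: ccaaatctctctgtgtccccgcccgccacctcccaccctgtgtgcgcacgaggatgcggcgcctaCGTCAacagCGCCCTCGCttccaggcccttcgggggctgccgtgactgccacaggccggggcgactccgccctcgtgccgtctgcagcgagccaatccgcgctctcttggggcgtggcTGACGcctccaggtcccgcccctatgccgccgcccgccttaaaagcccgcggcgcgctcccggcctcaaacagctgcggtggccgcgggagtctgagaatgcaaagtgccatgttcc
Motifs of factors known to act in early responses were searched on both strands. These were the cAMP response element TGACGTCA, its shorter form TGACG, the AP-1 motif TGANTCA, the EGR motif GCGNGGGCG, the E-box CACGTG and the CArG box of serum response factor. The shorter form is part of TGACGTCA. In the Rgs2 window TGACG began at position -185 relative to the start on the opposite strand, where it reads CGTCA, and at -67 on the strand shown. The EGR motif began at -176 on the opposite strand. The Rgs16 window held none of the 6 motifs. TGACG was in 20.8% and the EGR motif in 5.55% of 32851 promoter windows of the same length, so these letters are common. The AP-1 motif was in 7.81%, the E-box in 7.15%, the full cAMP response element in 1.79% and the CArG box in 1.63% of them. Windows were found for 35 of the 45 genes, 48 windows in all. TGACG was in 12 of these 48 (10 genes), the E-box in 6, the EGR motif in 5 and the AP-1 motif in 3. The full cAMP response element and the CArG box were in 0 of them. A match is only a run of letters and not a measured binding site.

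Rgs2, a regulator that acts above all on Gq alpha subunits, fell at 60 minutes and rose again by 120 minutes. Its intensity was 2793, 940 and 2158 at 0, 60 and 120 minutes in mutant cells and 2158, 681 and 2284 in wild-type cells. Both arrays at 60 minutes were far below the other 4, which lay within 2158 and 2793. The log2 difference was -1.60 ± 0.11 at 60 against 0 minutes (SE, limma adjusted p = 4.48e-06), a fall by 3.03-fold that ranked 5 among the 1162 genes that fell. It was 1.45 ± 0.11 at 120 against 60 minutes (adjusted p = 1.04e-05), a rise by 2.74-fold. At 120 against 0 minutes it was -0.14 and did not pass. The other 3 probe sets of Rgs2 had -1.60, -2.02 and -0.30 for the 60 minute change. At 120 against 0 minutes they had -0.07, -0.41 and -0.125 in the same order. The -0.41 passed in a limma fit over all probe sets with 1 gene symbol (adjusted p = 0.0200). A full return was thus not shared by all probe sets.

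Rgs16, which acts on Gi and Gq alpha subunits, was below the filter level at 0 minutes and above it later in both genotypes. Its intensity was 16.4, 402 and 384 in mutant cells and 0.122, 220.4 and 555 in wild-type cells. The 4 later arrays were 5.62 to 14.2 times the filter level and did not overlap the 2 arrays at 0 minutes. Since both arrays at 0 minutes were below the filter level, only a lower bound of the rise can be given. Set against the filter level, the geometric mean of the genotypes was at least 7.596-fold higher at 60 and at least 11.8-fold higher at 120 minutes. Rgs16 entered the tests only through the 4 later arrays, where it was high, so its p-values are no separate support for the rise. The fit called both rises (limma adjusted p = 9.96e-06 at 60 and 1.70e-06 at 120 against 0 minutes). The fitted log2 difference follows the offset added before the logarithm. It was 3.78 and 4.39 at 60 and 120 minutes with the offset of 16, 6.08 and 6.71 with an offset of 1, and 2.34 and 2.87 with an offset of 64, and it passed in each case. Of its other probe sets, 1 had differences of 2.80 at 60 and 3.27 at 120 minutes, and the other, below the filter level, had 1.004 and 1.397.

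Rgs3, a regulator of Gi and Gq alpha subunits, peaked at 60 minutes. Its intensity was 271, 589 and 295 in mutant cells and 198, 497 and 291 in wild-type cells, and neither 60 minute array overlapped the others. The log2 difference was 1.17 ± 0.096 at 60 against 0 minutes (limma adjusted p = 2.09e-05), a rise by 2.25-fold, and -0.85 ± 0.096 at 120 against 60 minutes (adjusted p = 0.000157). Another well-detected probe set had 1.54 and -1.08, while dim probe sets had 0.36 and 0.14 for the rise. At 120 against 0 minutes Rgs3 was 0.32 ± 0.096 (adjusted p = 0.0205). That smaller call was lost without the wild-type array at 0 minutes (0.17, adjusted p = 0.276), without the wild-type array at 120 minutes (0.16, 0.228) and when its probe sets were averaged (0.18, 0.166).

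**Figure D3:**
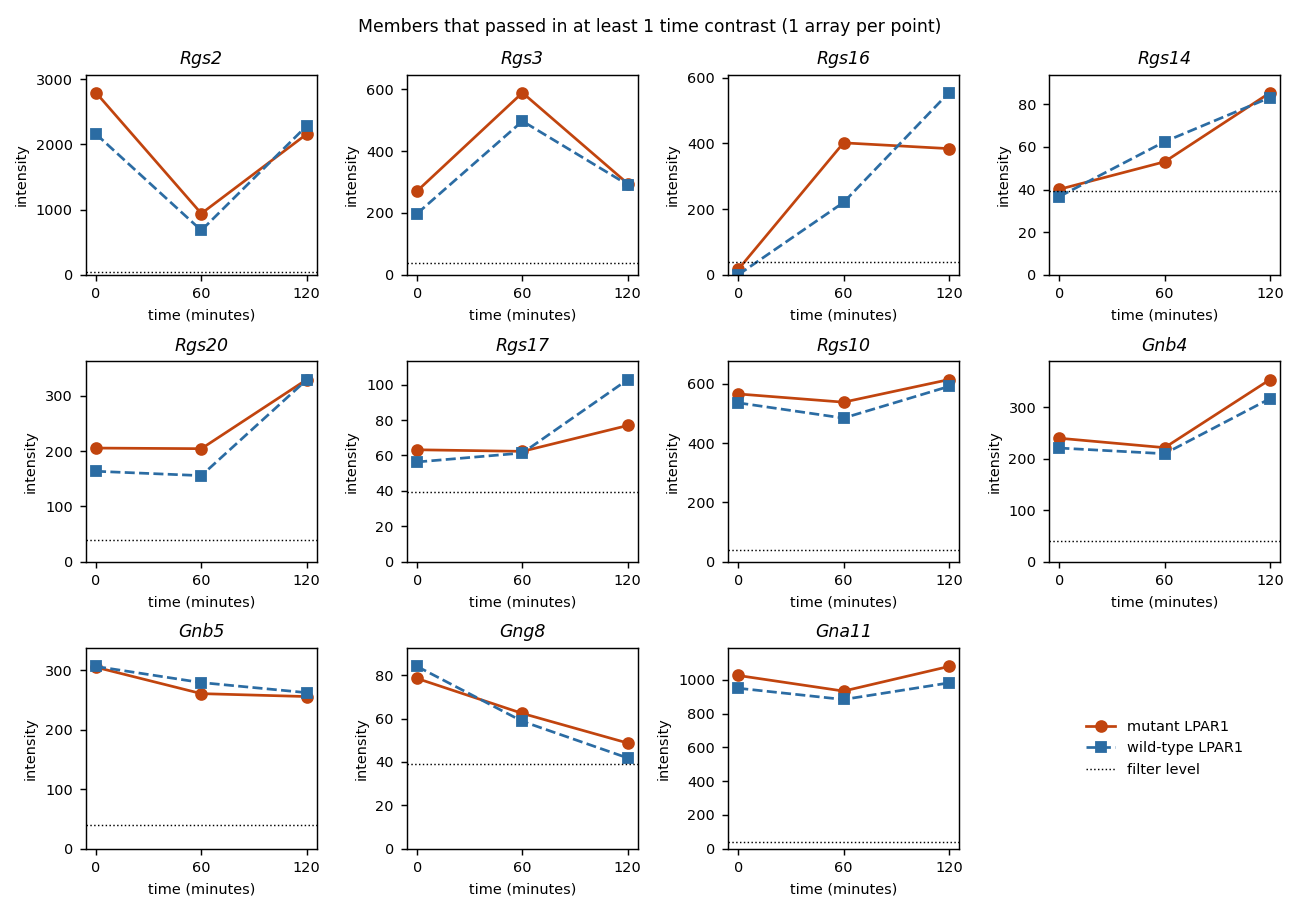
Intensity against time (0, 60 and 120 minutes) for the 11 genes that passed in a time contrast, with a solid line for mutant and a dashed line for wild-type cells, each point being 1 array, and the filter level dotted. Rgs2 dips at 60 minutes, Rgs3 peaks there, Rgs16 is near 0 at the start and high afterwards, and Rgs20 and Gnb4 are highest at 120 minutes.

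Rgs20, Rgs14, Rgs17 and Rgs10 were highest at 120 minutes. Rgs20, of the subfamily that acts on Gz and Gi alpha subunits, had 205, 204 and 329 in mutant cells and 163, 156 and 329 in wild-type cells. The 2 arrays at 120 minutes were nearly equal and above the other 4. Its log2 difference was 0.79 ± 0.098 at 120 against 0 minutes (limma adjusted p = 0.000129) and 0.83 ± 0.098 at 120 against 60 minutes (adjusted p = 0.000226). Of its other probe sets, 1 gave -0.02 for 120 against 0 minutes and 1, below the filter level, gave 0.61.

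Rgs14, which also binds inactive Gi alpha subunits through a GoLoco motif, had 40.1, 53.0 and 85.4 in mutant cells and 36.7, 62.5 and 83.2 in wild-type cells. Each later time lay above the one before it in both genotypes. Its 1 probe set read 1.02 (mutant) and 0.937 (wild-type) times the filter level at 0 minutes. At 120 against 0 minutes Rgs14 differed by 0.88 ± 0.12 on the log2 scale (limma adjusted p = 0.000234), and by 1.11 and 0.53 with offsets of 1 and 64. The log2 difference was 0.44 ± 0.12 at 60 against 0 minutes (adjusted p = 0.0322) and 0.45 ± 0.12 at 120 against 60 minutes (0.0218). The call at 60 minutes was lost without the mutant array at 0 minutes (adjusted p = 0.086), the wild-type array at 0 minutes (0.269) or the wild-type array at 60 minutes (0.231). The call between 120 and 60 minutes was lost without the mutant array at 60 minutes (0.192) or at 120 minutes (0.0944).

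Rgs17, a relative of Rgs20, had 63.2, 62.3 and 77.0 in mutant cells and 56.3, 61.4 and 103 in wild-type cells. The log2 difference was 0.47 ± 0.13 at 120 against 0 minutes (limma adjusted p = 0.0151) and 0.43 ± 0.13 at 120 against 60 minutes (adjusted p = 0.0390). Without the wild-type array at 120 minutes these were 0.26 (adjusted p = 0.179) and 0.22 (0.338). The first was also lost without the wild-type array at 0 minutes (0.185), and the other without the mutant (0.0684) or wild-type (0.179) array at 60 minutes. Rgs10, a small regulator of Gi alpha subunits, had 566, 539 and 615 in mutant cells and 536, 485 and 592 in wild-type cells. Its difference of 0.23 ± 0.065 at 120 against 60 minutes (adjusted p = 0.0261) was lost without any of the 4 arrays at those times (mutant 0.0562 and 0.0533, wild-type 0.181 and 0.128 at 60 and 120 minutes). Rgs19, Rgs12, Rgs4 and Rgs9 did not pass in a time contrast. Rgs19, for example, had 635, 699 and 616 in mutant cells and 685, 660 and 681 in wild-type cells.

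Among the beta subunits Gnb4 rose at 120 minutes. It had 240, 221 and 353 in mutant cells and 220.5, 209.5 and 316 in wild-type cells, and the 2 arrays at 120 minutes were above the other 4. It differed on the log2 scale by 0.51 ± 0.075 against 0 minutes (limma adjusted p = 0.000381), a rise by 1.43-fold, and 0.60 ± 0.075 against 60 minutes (adjusted p = 0.000306). Another probe set gave 0.39 and 0.52. Gnb5, the beta subunit that pairs with the Rgs6, Rgs7, Rgs9 and Rgs11 group, had 305, 261 and 256 in mutant cells and 307, 279.5 and 263 in wild-type cells. Its difference of -0.23 ± 0.074 at 120 against 0 minutes (adjusted p = 0.0298) was lost without the mutant array at 0 (0.218) or 120 minutes (0.0831), without the wild-type array at 0 (0.103) or 120 minutes (0.105), and under quantile normalization (-0.13, adjusted p = 0.173), and another probe set gave 0.06. Gnb1, Gnb2 and Gnb3 did not pass in a time contrast, and Gnb2 had 2204, 2150 and 2156 in mutant cells and 2320, 2104 and 2082 in wild-type cells.

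Among the gamma subunits Gng8, known from olfactory neurons, was the one that changed with time. It had 78.6, 62.4 and 48.7 in mutant cells and 84.1, 58.8 and 41.8 in wild-type cells, lower at each later time in both genotypes. Its log2 difference was -0.67 ± 0.12 at 120 against 0 minutes (limma adjusted p = 0.00107), a fall by 1.59-fold. That difference was -0.83 and -0.41 with offsets of 1 and 64. The 1 probe set of Gng8 read 1.24 (mutant) and 1.07 (wild-type) times the filter level at 120 minutes. Gng10, a widely expressed gamma subunit, had 3399.5, 3491 and 3387 in mutant cells and 3339.5, 3296 and 3624 in wild-type cells and did not pass. Gna11, a Gq-class alpha subunit, had 1026, 933 and 1079 in mutant cells and 950.3, 884 and 982 in wild-type cells. Its difference of 0.18 ± 0.058 at 120 against 60 minutes (adjusted p = 0.0486) was lost without each of the 6 arrays in turn (0.0700 to 0.238).

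Mutant and wild-type cells were compared in the same fit, as the mean difference over the 3 times. Of the 29 genes 4 passed, 3 higher and 1 lower in mutant cells (13.8%), beside 19.4% of all genes tested, of which 10.4% were higher and 8.94% lower. None of the 29 passed in limma when time was left out as a block, where 4 had an unadjusted p under 0.05. Only 0.834% of all genes passed in that fit, so the 0 is near the share of all genes. The count was 2 without any array at 0 or 60 minutes and 7 without either array at 120 minutes. Over these 6 fits 12.5% to 19.7% of all genes passed. With time as a block, leaving out either array of a time gives the same difference, so these are not 6 separate checks. Without the mutant array at 120 minutes the 7 included Rgs2 (0.41), Rgs3 (0.33), Rgs20 (0.33) and Rgs16 (0.92). The value of Rgs16 rests in part on arrays at 0 minutes below the filter level. The median log2 difference of the 29 genes was 0.08, beside 0.01 over all genes. At all 3 times 13 genes were higher and 2 lower in mutant cells (44.8% and 6.90%), beside 28.4% and 22.9% of all genes. When the probe sets of a gene were averaged, these 15 genes of 29 became 9 of 27. No test was made of these shares. Gene by gene, the largest difference of the 4 that passed by genotype was that of Gng11.

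Gng11, a farnesylated gamma subunit, was lower in mutant cells at each time. It had 207, 200.2 and 169 in mutant cells and 317, 288 and 296 in wild-type cells, with no overlap. The means were 192 ± 20.1 in mutant and 301 ± 15.1 in wild-type cells (SD, n = 3 each). The fitted log2 difference was -0.61 ± 0.070 (SE, limma adjusted p = 0.000386), 1.53-fold lower, and ranked 105 among the 976 genes lower in mutant cells. At 0, 60 and 120 minutes it was -0.58, -0.49 and -0.75. The gene had 1 probe set, so no other set bears on the value. Of the alternatives run, the call was lost only without time as a block (adjusted p = 0.0873).

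Gng12, a widely expressed gamma subunit, had 1968, 1982 and 2014 in mutant cells and 1762, 1611 and 1724 in wild-type cells, again with no overlap. Its means were 1988 ± 23.5 and 1699 ± 78.9 (SD, n = 3 each), and its log2 difference was 0.23 ± 0.046 (limma adjusted p = 0.00861). Another probe set of Gng12 gave -0.04, and the mean of its probe sets gave 0.09 (adjusted p = 0.132). Gnb1, the most studied beta subunit, had 2999.7, 2831 and 2849.5 in mutant cells and 2658, 2475 and 2660.4 in wild-type cells. Its log2 difference of 0.15 ± 0.042 (adjusted p = 0.0289) was lost without any array at 0 or 60 minutes (0.103 to 0.135). Its other probe sets gave -0.23 and 0.06, and the mean over its probe sets gave -0.01 (adjusted p = 0.949), the opposite sign.

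Rgs9, an RGS protein of photoreceptors and striatum that works with Gnb5, had 96.9, 88.2 and 103 in mutant cells and 73.4, 74.5 and 79.9 in wild-type cells. Its means were 96.1 ± 7.52 and 75.9 ± 3.45 (SD, n = 3 each), and its log2 difference was 0.28 ± 0.083 (limma adjusted p = 0.0394). The groups did not overlap, but the call was lost without each of the 6 arrays in turn (0.0671 to 0.209), and its 2 remaining probe sets, which were dimmer than the filter allows, gave 0.13 and -0.06. Gnai3, an inhibitory alpha subunit, did not pass, with 2538, 2481 and 2778 in mutant cells and 2389, 2296 and 2361 in wild-type cells and a difference of 0.14 (adjusted p = 0.0519). The 7 probe sets of Gna13 ranged from -0.28 to 0.30 and did not share a sign.

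**Figure D4:**
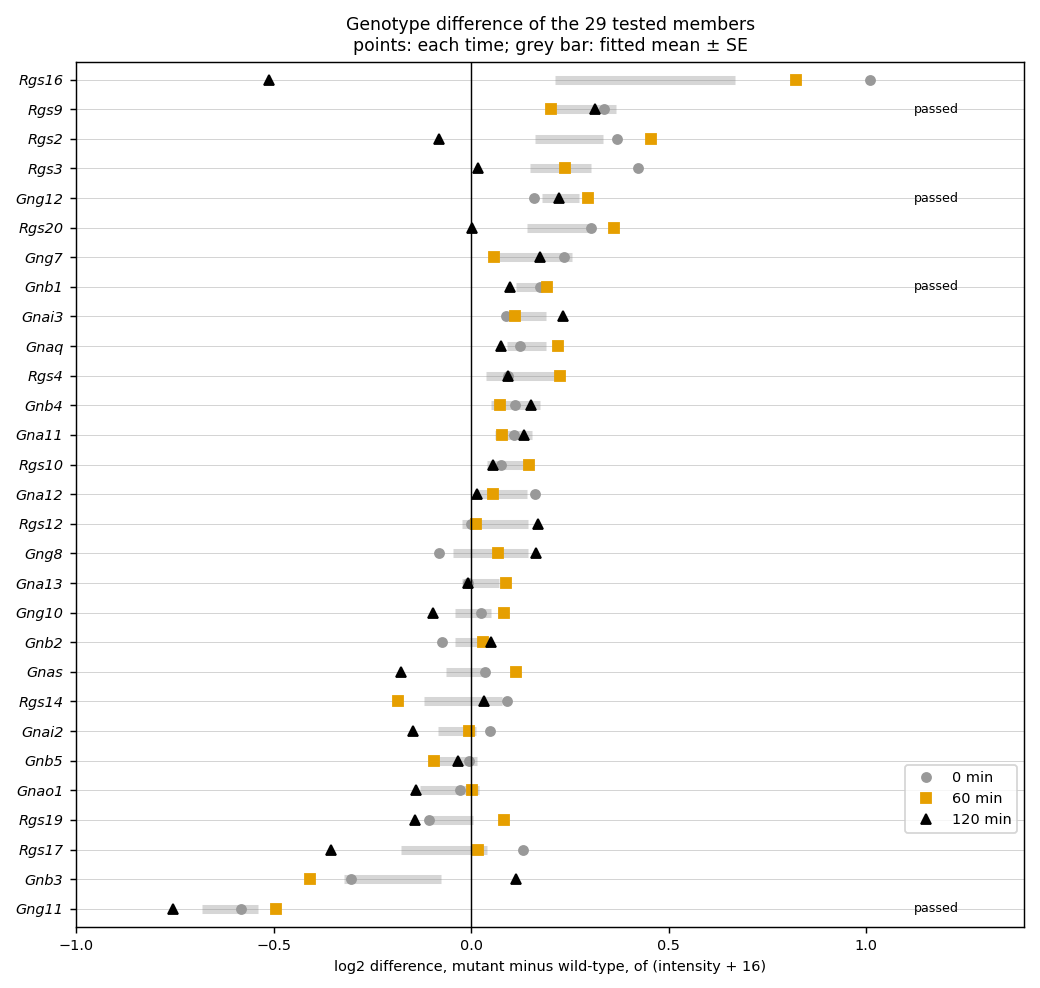
Log2 difference of mutant minus wild-type cells (log2(intensity + 16) scale) for each of the 29 tested genes at 0, 60 and 120 minutes (points), with a grey bar for the fitted mean ± SE. Gng11 lies below 0 at each time, Gng12, Gnb1 and Rgs9 lie above it, and the points of Rgs16 at 60 and 120 minutes lie at 0.82 and -0.51, while its point at 0 minutes compares values below the filter level.

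Some markers of other cell types differed by genotype or time beside these genes. The endothelial markers had 1 of 5 members above the filter level, and their summed intensity was 98.9 to 120.0 on mutant and 60.1 to 70.6 on wild-type arrays, through Cdh5 (0.97, limma adjusted p = 0.000245). The neural and glial markers had 3 of 6 members above it, with sums of 195 to 308 on mutant and 284 to 431 on wild-type arrays, where S100b was lower (-0.80). Leukocyte markers had 3 of 7 above it, with sums of 389 to 417 on mutant and 442 to 478 on wild-type arrays, where Cd14 was lower in mutant cells (-0.27). Epithelial markers had 4 of 6 above it, with sums of 1405 to 1731 on mutant and 1458 to 1685 on wild-type arrays, where Cdh1 was lower (-0.49). The 5 muscle markers, with 1 above it, summed to 171 to 278 on mutant and 167 to 470.2 on wild-type arrays. That 1 marker, Acta1, was lower in mutant cells (-0.80) and rose with time, by 1.64 at 60 and 2.14 at 120 against 0 minutes on the log2 scale. At 120 against 0 minutes S100b (-0.65) and Mbp (-0.80) of the neural and Cdh1 (-0.53) and Krt14 (-0.30) of the epithelial list fell. The part of these lists in the genotype and time differences was not tested. Levels within these lists were mixed. Pecam1 read 2.79 to 5.66, Cd3e 0.039 to 8.22 and Snap25 1.43 to 6.84 over the 6 arrays, far below the filter level. Krt14 read 1001 to 1267, Epcam 160 to 277 and Cd14 211 to 294, above it.

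With 1 array per genotype and time, a difference in time course between genotypes has no test and cannot be told apart from array noise, so the values of the RGS genes are given by time as a description. The log2 difference of mutant minus wild-type cells was 0.37, 0.46 and -0.08 for Rgs2 at 0, 60 and 120 minutes and 0.42, 0.24 and 0.02 for Rgs3. It was 0.30, 0.36 and 0.00 for Rgs20 and 0.13, 0.02 and -0.35 for Rgs17. The differences were 0.08, 0.15 and 0.05 for Rgs10 and 0.09, -0.18 and 0.03 for Rgs14. For Rgs16 the difference was 0.82 at 60 and -0.51 at 120 minutes, while at 0 minutes both arrays were below the filter level and give no order.

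By genome position, several of the genes lie next to each other among protein-coding genes. On chromosome 1 the order Rgs2, Rgs13, Rgs1 is unbroken, Rgs8 is followed by Rgs16 and Rgs5 by Rgs4. Other neighbours are Gna15 and Gna11 on chromosome 10, Rgs9 and Gna13 on chromosome 11, and Gnaq and Gna14 on chromosome 19. In 1 of these 7 pairs, Rgs9 and Gna13, both genes were above the filter level. So Rgs13, the neighbour of Rgs2, and Rgs8, the neighbour of Rgs16, were below the filter level on average, while Rgs2 and Rgs16 changed with time.

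Other genes of the pathway were taken from lists, whose counts stand beside 7.33% of all genes higher and 10.6% lower at 60 against 0 minutes, 16.2% and 30.8% at 120 against 0 minutes, and 10.4% and 8.94% by genotype. Of 20 genes of cAMP signalling 15 were tested, and at 60 against 0 minutes 3 fell. Among these was Pde4b, a phosphodiesterase that degrades cAMP, with 496, 144 and 360.4 in mutant cells and 404, 152 and 362 in wild-type cells. Its log2 difference was -1.50 at 60 against 0 minutes and 1.20 at 120 against 60 minutes, so that it was low at the same time as Rgs2. The kinase Sik1 (-0.54) and the transcription factor Creb1 (-0.26) also fell at 60 minutes. At 120 against 0 minutes 3 of the 15 rose, led by Pde4d (0.54), and 5 fell, led by the phosphodiesterase Pde7a (-0.95). In mutant against wild-type cells 3 were higher, led by Pde3a (0.68). Pde7b, singled out after its values were seen and not tested because its mean was below the filter level, had 6.05, 7.20 and 8.41 in mutant cells and 51.5, 51.3 and 42.2 in wild-type cells.

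Of 22 direct effectors of G proteins 13 were tested. At 60 against 0 minutes 2 fell, among them the adenylyl cyclase Adcy6 (-0.30), and at 120 against 0 minutes 2 fell, among them the cyclase Adcy7 (-0.50). The phospholipase Plcb4 (0.74) and the cyclase Adcy5 (0.32) were higher in mutant cells. Plcb4 had 105, 94.3 and 84.0 in mutant cells and 45.8, 36.9 and 71.6 in wild-type cells.

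Of 11 chaperones, exchange factors and GoLoco proteins 8 were tested. Gpsm2, a GoLoco protein that binds Gi alpha subunits, was higher in mutant cells, with 1039, 1289.8 and 922 in mutant cells and 716, 892 and 635 in wild-type cells (0.53, limma adjusted p = 8.71e-05). Ric8b, a chaperone of Gs alpha subunits, was also higher (0.24). At 60 against 0 minutes Pdcl3 (0.49) and Gpsm2 (0.31) rose and Ric8a (-0.24) fell. At 120 against 0 minutes 1 rose, Pdcl3 (0.58), and 4 fell, led by Gpsm1 (-0.88) and Ric8a (-0.35).

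Of 7 receptor kinases and arrestins 3 were tested. Arrb2, an arrestin that ends receptor coupling, fell by 0.37 at 60 and by 0.75 at 120 against 0 minutes on the log2 scale. Grk6, a receptor kinase, rose at 120 minutes (0.40) and was higher in mutant cells (0.22). Of 10 RGS-domain proteins and RGS partners outside the numbered family 7 were tested, and Snx25 was lower in mutant cells (-0.52) and rose at 120 against 0 minutes (0.51), while Akap10 (-0.50) and Snx14 (-0.25) fell. Of 5 receptors for lysophosphatidic acid 3 were tested, and besides Lpar1 by genotype Lpar6 (-0.31) fell at 60 and Lpar4 (-0.93) at 120 against 0 minutes. Gnat2 was the 1 tested of 5 further G protein subunits, and it did not pass in any contrast.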

How the data were processed

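RNA of 6 samples was measured on Affymetrix arrays. The deposited values are linear intensities per probe set, with PLIER and Affymetrix Power Tools 1.14.3.1 named as tools, per the submitters' processing notes. Background correction and scaling between arrays are not given in the sources used here.

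Of 45101 probe sets, 64 were controls, 34958 had 1 gene symbol, 932 several and 9211 none. The identifiers of 34754 matched a RefSeq table of GRCm38.p6, used for names, neighbours and promoter windows, and all 45 genes of the family matched. Intensities were used as log2(intensity + 16), on which folds and log2 differences are given and which understates changes of dim genes. Genes whose mean level fell short of the 40th percentile were left out.

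The 10916 remaining genes were fitted in limma 3.58.1 (R 4.3.3) with genotype and time as additive terms and a variance trend. Residual degrees of freedom numbered 2, and shrinkage added 7.72 to them. P-values are two-sided with Benjamini-Hochberg adjustment over all genes within a contrast, and the threshold was 0.05. The fit was tested on simulated data. The residual includes any difference in time course between genotypes.

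Within each genotype, replicate 1 is the array at 0, replicate 2 that at 60 and replicate 3 that at 120 minutes. Time from the labels paired the arrays, and time was the block of the genotype contrast. In the time contrasts the fit without the block leaves out genotype. Deviations of paired arrays from their genotype means correlated across genes at Pearson's r of 0.912 at 0, 0.757 at 60 and 0.871 at 120 minutes. These values hold the shared time response, and genes are not independent replicates.

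The genes of the family, the other lists and the tests were chosen with earlier results of these data known. Members that passed were named with full values, other lists by up to 4 genes by size of change, and other probe sets where they had the opposite sign or a much smaller difference. Lists of markers covered fibroblast, leukocyte, epithelial, endothelial, neural and muscle genes. Alternatives were offsets of 1 and 64, quantile normalization, no filter or the 60th percentile, the mean of probe sets, no variance trend, no replicate block, and leaving out each array.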

Additional observations from a re-analysis of the deposited data

How the results depend on the processing

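Of 24 results for single genes of the family that passed, 12 kept their direction and call under every alternative run, and 12 lost the call under at least 1. For mutant minus wild-type the count of 4 became 2 with the mean of probe sets, 2 without the variance trend and 0 without the replicate block (4 unadjusted in limma), and 2 to 7 when each array was left out. The genes called among all 10916 fell to 91 without the block and to 1407 without the trend, in place of 2115, with 1362 to 2151 when each array was left out. For 60 minus 0 minutes the count of 4 became 2 with the 60th percentile filter and 3 to 5 when each array was left out. For 120 minus 0 minutes the count of 8 became 4 with that filter, 5 without the block (genotype, in the time contrasts) and 5 to 8 when each array was left out. For 120 minus 60 minutes it became 4 without the block and 4 to 8 when each array was left out. Over all genes the counts without the block were 585, 2768 and 1005 in these 3 time contrasts, in place of 1962, 5126 and 2742, and 1147 to 2505 when each array was left out at 60 minus 0 minutes. The 15 genes with 1 sign at all 3 times became 9 with the mean of probe sets, where 27 were tested. Gnb1 reversed to -0.00632 with the mean of probe sets. The stricter filter tests fewer genes, 19 of the family. Under it 21.4% of all genes passed at 60 minus 0 minutes and 54.2% at 120 minus 0 minutes. Each left-out array removes a sample, and the cause of the other shifts was not tested. With 1 array per genotype and time, a difference in time course could not be tested, and signals near the background limit Rgs16 at 0 minutes.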
